A study of Mus musculus with 6 samples.

Results

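The Fanconi anemia and homologous recombination genes were followed in RNA from primary mouse embryonic fibroblasts (MEFs), connective-tissue cells grown from E13.5 embryos. The set was a list of 33 gene symbols, and 32 of them stood under their own symbol in the count tables, among 25793 genes in all. All 32 reached 1 CPM (counts-per-million of the scaled library) somewhere among the libraries, as did 14810 genes of the whole tables. The remaining gene, Slx4, appears in the tables only under an older symbol and is described among the other observations.

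The Fanconi pathway repairs crosslinks between the strands of DNA. A nuclear core complex attaches ubiquitin to the FANCD2-FANCI pair, the crosslink is cut out, and the broken duplex is restored by homologous recombination, which copies the sister chromatid. Cells use this route in S and G2 phase, and many of its genes are transcribed most strongly in dividing cells. Fibroblasts from mice without these genes are known for their sensitivity to crosslinking drugs.

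There was 1 library for each of 6 labelled genotypes, without replicates. They were labelled SMAD3-/- (homozygous knockout of Smad3, which carries TGF-beta signals to chromatin), β2SP+/- ; SMAD3+/- (heterozygous at both loci, called the double heterozygote here), SMAD3+/-, β2SP-/- and β2SP+/- (homozygous and heterozygous knockouts of Sptbn1, which encodes beta-II spectrin, a membrane-skeleton protein and Smad3 adaptor), and wild type (WT). The cells came from matings of Sptbn1 and Smad3 heterozygous mice, and no treatment is labelled. How many embryos went into a library, and what the knockout alleles delete, is not stated by the labels. Each comparison therefore sets 1 library against another, and any difference between embryos, cultures or preparations cannot be told apart from the genotype.

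Libraries stood apart in ways that touch every result below. Reads counted on genes came to 21329087 in the library labelled SMAD3-/-, 31125055 in the double heterozygote, 10477425 in SMAD3+/-, 6856680 in β2SP-/-, 6888076 in β2SP+/- and 11407587 in WT. Genes took 80.1% and 81.2% of uniquely placed reads in SMAD3-/- and the double heterozygote, against 40.9 to 43.3% in the other 4 libraries, and the ribosomal RNA Rn18s stood at 349 and 1529 CPM in that pair against 64661 to 87249 CPM in the other 4. Smad3 itself ran against its labels, with 106 CPM in the library labelled SMAD3-/-, 203 in the double heterozygote, 79.5 in SMAD3+/-, 57.2 in β2SP-/-, 57.7 in β2SP+/- and 53.3 in WT. Genotype names below therefore stand for the libraries so labelled. Sptbn1, listed as Spnb2, stood at 1022 CPM in SMAD3-/-, 695 in the double heterozygote, 1556 in SMAD3+/-, 771 in β2SP-/-, 1071 in β2SP+/- and 1419 in WT, so that SMAD3-/-, with no labelled Sptbn1 mutant allele, lay below β2SP+/-. All 14 fibroblast markers were detected in all 6 libraries, with summed levels of 19639 CPM in SMAD3-/-, 51639 in the double heterozygote and 22076 to 31329 in the other 4. In SMAD3-/- against WT, 8 of the 14 were called lower and 2 higher by the counting rule explained below, with Dcn, a collagen-binding proteoglycan, at 55.2 CPM against 1301, and in the double heterozygote against WT 6 were called higher and 1 lower. The 8 epithelial markers summed to 69.2 CPM in SMAD3-/-, 6.02 in the double heterozygote and 7.36 to 16.3 in the other 4. Esrp1 was at 0 in every library but SMAD3+/-. Of the 5 that reached 1 CPM, 3 keratins were called higher in SMAD3-/- than in WT, among them Krt19 at 31.1 CPM against 2.3. The other 2 lay below WT and were not called, and the median of the 8 was 0.711 CPM in SMAD3-/- against 0.929 in WT. The 12 macrophage markers summed to 65.3 CPM in SMAD3-/-, 1854 in the double heterozygote and 1542 to 2425 in the other 4, and none of them was at 0 in any library. What part these differences have in the results was not tested.

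The start regions of 6 members are shown first, because 5 of them were among the genes farthest from equality in their direction in SMAD3-/- against WT or against the double heterozygote. Each runs 5′ to 3′ along the gene from 250 bases before the start to 50 bases after it, as RefSeq gives it on GRCm38.p6. Capitals mark matches, on either strand, to the E2F letters TTCCCGC or TTGGCGC (cell-cycle factors), the CCAAT box, the NRF1 letters GCATGCG or the CHR letters TTTGAA (a cell-cycle repressor element). Fanca lies at chr8:123318527-123318826 on the minus strand, Fancb at chrX:164980342-164980641 on the plus strand, Fanci at chr7:79392088-79392387 on the plus strand and Fancg at chr4:43010252-43010551 on the minus strand. Xrcc3 lies at chr12:111813830-111814129 on the minus strand and Brca2 at chr5:150522371-150522670 on the plus strand; Brca2, the lowest ratio of the set in the double heterozygote, was added after its values were seen. The rule took up to 3 genes called higher and up to 3 called lower in each comparison, so Xrcc3 and Fancg were farthest only among the few called lower. It also chose Exo1 and Rad50, whose start regions are not shown.
Fanca: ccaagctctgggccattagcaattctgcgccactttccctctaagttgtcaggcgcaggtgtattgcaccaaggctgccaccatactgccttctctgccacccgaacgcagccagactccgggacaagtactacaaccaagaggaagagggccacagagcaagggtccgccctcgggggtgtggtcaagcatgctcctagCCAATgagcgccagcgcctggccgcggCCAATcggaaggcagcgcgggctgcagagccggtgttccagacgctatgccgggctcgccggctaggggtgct
Fancb: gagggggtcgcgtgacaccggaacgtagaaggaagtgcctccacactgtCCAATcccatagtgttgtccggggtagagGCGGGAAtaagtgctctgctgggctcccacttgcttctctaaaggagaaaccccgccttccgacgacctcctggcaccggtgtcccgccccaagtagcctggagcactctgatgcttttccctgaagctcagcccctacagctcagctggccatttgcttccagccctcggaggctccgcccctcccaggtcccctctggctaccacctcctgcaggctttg
Fanci: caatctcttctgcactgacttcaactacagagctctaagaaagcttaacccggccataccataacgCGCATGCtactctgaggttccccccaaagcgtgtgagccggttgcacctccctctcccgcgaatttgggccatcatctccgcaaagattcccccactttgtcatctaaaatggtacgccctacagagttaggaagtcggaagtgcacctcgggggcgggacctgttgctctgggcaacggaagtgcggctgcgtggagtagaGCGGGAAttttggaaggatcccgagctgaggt
Fancg: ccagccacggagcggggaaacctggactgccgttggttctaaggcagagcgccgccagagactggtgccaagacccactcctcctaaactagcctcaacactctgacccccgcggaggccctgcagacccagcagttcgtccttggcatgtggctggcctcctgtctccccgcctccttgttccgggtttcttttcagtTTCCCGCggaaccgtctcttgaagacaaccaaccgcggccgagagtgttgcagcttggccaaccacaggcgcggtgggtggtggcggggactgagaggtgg
Xrcc3: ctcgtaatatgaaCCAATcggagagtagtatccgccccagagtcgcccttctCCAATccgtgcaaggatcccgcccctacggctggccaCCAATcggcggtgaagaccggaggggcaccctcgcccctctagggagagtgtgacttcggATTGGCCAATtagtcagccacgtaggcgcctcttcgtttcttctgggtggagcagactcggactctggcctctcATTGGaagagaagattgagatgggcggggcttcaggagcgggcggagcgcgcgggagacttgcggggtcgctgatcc
Brca2: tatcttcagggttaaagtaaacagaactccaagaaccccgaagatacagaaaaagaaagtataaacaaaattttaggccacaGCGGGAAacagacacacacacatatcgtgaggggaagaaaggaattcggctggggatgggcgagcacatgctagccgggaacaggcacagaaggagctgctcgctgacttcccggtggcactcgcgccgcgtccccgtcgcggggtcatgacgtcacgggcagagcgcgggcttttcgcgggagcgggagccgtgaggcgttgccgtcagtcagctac
Of the 6, Fancb, Fanci, Fancg and Brca2 hold 1 E2F match each, Fanca holds 2 CCAAT boxes and no E2F match, and Xrcc3 holds 6 CCAAT boxes and no E2F match. Fanci also holds the NRF1 letters, and none of the 6 holds the CHR letters in this window. The E2F letters TTGGCGC can share bases with a reversed CCAAT box, which happens in none of the 6. The bases after the start were found in a GENCODE M21 transcript of the gene for all but Xrcc3 and Brca2. Of the 32 genes, 24 had a promoter in the table, and 12 of those 24 (50%) held an E2F match, against 6.93% of all 27025 promoters of the same length. The CCAAT box was in 14 of 24 (58.3%) against 37.9% of all, NRF1 in 3 of 24 (12.5%) against 3.64%, and CHR in 1 of 24, Bard1 (4.17%), against 18.1%. The 24 promoters had a median GC content of 60%, against 52.7% over all 27025. These matches describe the letters and are not binding sites measured here.

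All 32 genes were transcribed in every library, at levels that put them among genes of low to middle count. Read counts per gene ran between 118 and 6951 in SMAD3-/-, 108 and 3158 in the double heterozygote, and 58 and 1991 in WT, and the least covered value of all was 29 reads in β2SP+/-. Summed over the set, the level was 1425 CPM in SMAD3-/-, 582.6 in the double heterozygote, 1161 in SMAD3+/-, 974.7 in β2SP-/-, 983.2 in β2SP+/- and 986.6 in WT. The β2SP libraries and WT thus lay close together, SMAD3+/- and SMAD3-/- above them, and the double heterozygote lowest. In bulk RNA, fewer cells that transcribe a gene and less transcript per cell cannot be told apart. Of the 32 genes, 24 had their highest level in SMAD3-/-, where 32.3% of all genes had theirs. The lowest level of 22 of the 32 was in the double heterozygote, where 22.6% of all genes had theirs. The second highest of 18 was in SMAD3+/-, and the like share of all genes was not computed.

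**Figure D1:**
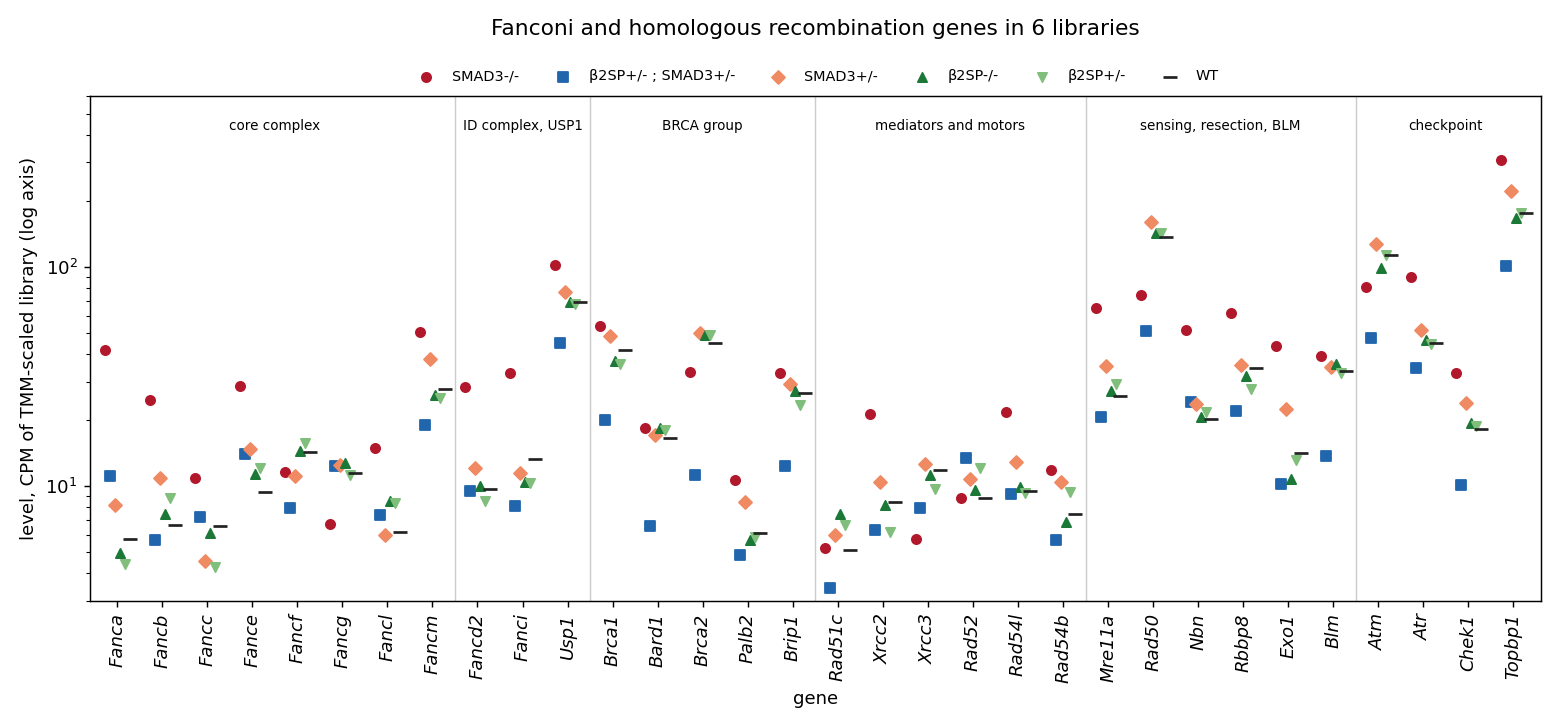
Level of each of the 32 genes in the 6 libraries, in CPM of the TMM-scaled library on a log axis, 1 point per library and with genes grouped by role. For 24 genes the SMAD3-/- point is the topmost, and for 22 the double heterozygote is the lowest.

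Per kilobase of exon, Topbp1, an activator of the ATR kinase, was the most abundant of the set, at 59.1 CPM per kb in SMAD3-/-, 19.3 in the double heterozygote and 33.7 in WT. Usp1, the protease that takes ubiquitin off FANCD2, followed with 28.4 and 12.5 in that pair of libraries, against 19.2 in WT. Rad51c, a recombination mediator, was at the bottom of the order in both, with 1.22 and 0.799 CPM per kb, and next to last in WT with 1.19. Fanca was the lowest of the 32 in WT at 0.898 CPM per kb and reached 6.56 in SMAD3-/-. Across all 6 libraries the highest level of a gene exceeded its lowest by a median of 2.69-fold, between 1.52-fold for Rad52 and 9.51-fold for Fanca. Across SMAD3+/-, the β2SP libraries and WT the same median was 1.35-fold, between 1.1-fold for Blm and 2.1-fold for Exo1.

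In the β2SP libraries the set stayed near WT. A gene is called here when the whole exact 95% interval of its count ratio, given in parentheses after a fold, lies beyond 1.5-fold. These intervals cover counting error only, since each genotype has 1 library. PCR copies of 1 molecule cannot be recognised in the counts, so counting error itself may be larger than the intervals show. None of the 32 was called in β2SP-/- against WT, where 0.648% of all 14810 genes were called higher and 0.412% lower, and none in β2SP+/- against WT, where the shares were 0.635% and 1.2%. The median log2 ratio of the set was 0.03 in β2SP-/- and -0.02 in β2SP+/-, against -0.01 over all genes in both. None was called between β2SP-/- and β2SP+/-, with shares of 0.925% higher and 0.378% lower over all genes. Depth limits the statement. The interval lay wholly inside 1.5-fold for 22 genes in β2SP-/- and for 19 in β2SP+/-, so for the remaining 10 and 13 a change of 1.5-fold was not excluded by counting error. Atm, the kinase that signals double-strand breaks, had 99.1 CPM in β2SP-/- against 114 in WT, a ratio of 0.868 (0.789 to 0.954), the only interval of the 32 in that comparison that did not include 1. In β2SP+/- such intervals belonged to Rad52, a strand-annealing protein, at 12.1 CPM against 8.85 in WT, and Rbbp8, the resection factor CtIP, at 27.8 CPM against 34.5 in WT. For neither comparison was the share of all genes with such intervals computed, so these genes are not set apart from the rest.

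In SMAD3+/- the set leaned upward without a call. None of the 32 was called against WT, where 1.64% of all genes were called higher and 4.46% lower. The ratio was above 1 for 28 of the 32 and for 50.4% of all genes, and the median log2 ratio was 0.23 for the set and 0.00 for all genes. Of the 32 intervals 16 did not include 1, that of Fancf lying below it. The share of all genes with such intervals was not computed. The largest ratios belonged to Fancb, a core complex subunit, with 10.9 CPM against 6.63 in WT, a ratio of 1.64 (1.21 to 2.22), and to Exo1, the exonuclease of long-range resection, with 22.6 CPM against 14.2 in WT, a ratio of 1.6 (1.3 to 1.96). Fance, the core subunit that binds FANCD2, had 14.8 CPM against 9.38 in WT, and Fancm, the translocase that anchors the core complex, 38.1 CPM against 27.7 in WT. Fancf, a core scaffold, went the other way with 11.1 CPM against 14.3 in WT, a ratio of 0.778 (0.607 to 0.994). The SMAD3+/- library also held Xist at 2747 CPM and the Y-linked Ddx3y at 0.388 CPM, while the other 5 held Xist at 16.3 CPM or less and Ddx3y at 118 CPM or more, and Fancb is X-linked. The part of this difference in the values was not tested.

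In SMAD3-/- against WT, 16 of the 32 genes were called higher and 2 lower, where 24.2% of all 14810 genes were called higher and 25.2% lower. The median log2 ratio of the set was 0.81, against 0.06 over all genes. Of the 32 ratios 25 were above 1, as were those of 51.6% of all genes. The intervals leave out differences between cultures. Widened by the dispersion of the 6-library fit described at the end, they left 1 call, Fanca, where 2.53% of all genes were called higher and 10.2% lower. The calls covered the core complex, the FANCD2-FANCI pair, recombination mediators, resection and checkpoint genes, and no gene of the BRCA group (Brca1, Bard1, Brca2, Palb2 and Brip1). For 11 genes the SMAD3-/- level also lay beyond 1.5-fold above the nearest of the other 5 libraries, which held for 8.64% of all genes. Those were Fanca, Fancb, Fance, Fancd2, Fanci, Xrcc2, Mre11a, Nbn, Rbbp8, Exo1 and Atr. In this library 0.0411% of uniquely placed reads were set aside as fitting several genes, against 0.683 to 1.23% in the other 5. Exons of 6 members overlap, in the GENCODE M21 annotation, a gene of the count tables on the opposite strand, over 1.8 to 17% of their length: Fanca, Fancl, Fanci, Rad54l, Mre11a and Atr. All 6 were among the 16 called higher, and of the 26 without such overlap 10 were called higher and 2 lower, with a median log2 ratio of 0.63. Over all genes 28.6% of those with such overlap and 24.9% of those without were called higher. Another 5 members, Fancm, Fancd2, Brca2, Rad54b and Rbbp8, overlap an annotated opposite-strand gene that the count tables do not name. With these left out too, 7 of 21 were called higher and 2 lower, with a median log2 ratio of 0.36, where 24.8% of all genes without any such overlap were called higher and 23.9% lower. The call rate of the 21 thus lay nearer to that of all genes than that of the 32, and whether reads of the partner entered these counts was not tested.

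Among core complex genes, 5 of 8 were called higher in SMAD3-/- and none lower. Fanca, a core subunit and the gene most often mutated in people with Fanconi anemia, had 42.0 CPM in SMAD3-/-, 11.1 in the double heterozygote, 8.24 in SMAD3+/-, 4.93 in β2SP-/-, 4.42 in β2SP+/- and 5.75 in WT. SMAD3-/- was far above the rest and the double heterozygote second, with a fold of 7.31 (5.68 to 9.55) for SMAD3-/- over WT. Fancb had 24.8 CPM in SMAD3-/-, 5.67 in the double heterozygote, 10.9 in SMAD3+/-, 7.47 in β2SP-/-, 8.83 in β2SP+/- and 6.63 in WT, and was 3.74-fold (2.93 to 4.82) higher in SMAD3-/- than in WT. Fancl, the ubiquitin ligase subunit, had 14.9 CPM in SMAD3-/- and 5.48 CPM per kb, against 6.19 CPM and 2.27 CPM per kb in WT, a fold of 2.41 (1.86 to 3.16). Fance stood at 28.5 CPM in SMAD3-/-, 14.0 in the double heterozygote, 14.8 in SMAD3+/-, 11.4 in β2SP-/-, 12.1 in β2SP+/- and 9.38 in WT, 3.04-fold (2.47 to 3.77) higher in SMAD3-/- than in WT. Fancm was 1.82-fold (1.61 to 2.07) higher, at 50.4 CPM against 27.7 in WT. The core did not move as a block, because Fancg, which links core subunits, had 6.75 CPM in SMAD3-/- against 11.5 in WT, a ratio of 0.587 (0.461 to 0.748) that was not called. Fancf, with 11.6 CPM against 14.3, and Fancc, with 10.9 CPM against 6.55, were not called either.

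Both members of the FANCD2-FANCI pair, the ubiquitinated clamp of the pathway, were called higher in SMAD3-/-. Fancd2 had 28.3 CPM in SMAD3-/-, 9.55 in the double heterozygote, 12.1 in SMAD3+/-, 10.0 in β2SP-/-, 8.54 in β2SP+/- and 9.73 in WT, a fold of 2.90 (2.37 to 3.59) for SMAD3-/- over WT. Fanci had 33.0 CPM in SMAD3-/-, 8.15 in the double heterozygote, 11.5 in SMAD3+/-, 10.5 in β2SP-/-, 10.3 in β2SP+/- and 13.3 in WT, a fold of 2.49 (2.09 to 2.99). The 5 other libraries lay within a narrow band for both genes, and SMAD3-/- stood alone above it. Per exon length the ratio of Fancd2 to Fanci was 0.770 in SMAD3-/- and 1.06 in the double heterozygote, inside or just beyond the range of 0.661 to 0.946 in the other 4. Usp1 had 102 CPM in SMAD3-/- against 68.9 in WT, a ratio of 1.48 (1.36 to 1.61) that was not called.

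The sensors and nucleases of double-strand breaks split in SMAD3-/-. MRE11, RAD50 and NBS1 (Nbn) form the complex that binds broken ends and starts resection. Mre11a had 65.1 CPM in SMAD3-/-, 20.7 in the double heterozygote, 35.3 in SMAD3+/-, 27.2 in β2SP-/-, 29.3 in β2SP+/- and 25.7 in WT, a fold of 2.53 (2.23 to 2.88) for SMAD3-/- over WT. Nbn had 51.4 CPM in SMAD3-/-, 24.2 in the double heterozygote, 23.7 in SMAD3+/-, 20.6 in β2SP-/-, 21.8 in β2SP+/- and 20.3 in WT, a fold of 2.54 (2.20 to 2.94). Rad50 ran the other way, with 74.2 CPM in SMAD3-/-, 50.8 in the double heterozygote, 161 in SMAD3+/-, 143 in β2SP-/-, 143 in β2SP+/- and 137 in WT. It was called lower in SMAD3-/- than in WT, by 1.85-fold (1.73 to 1.98), and both of the first-named libraries lay well below the other 4. Per exon length, Rad50 exceeded Mre11a 1.27-fold in SMAD3-/- and 2.75-fold in the double heterozygote, against 5.09- to 5.96-fold in the other 4 libraries. Its ratio to Nbn was 0.709 in SMAD3-/- and 1.03 in the double heterozygote, against 3.23 to 3.42 in the other 4. The ratio of Nbn to Mre11a was 1.80 in SMAD3-/- and 2.67 in the double heterozygote, against 1.53 to 1.79 in the other 4.

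**Figure D2:**
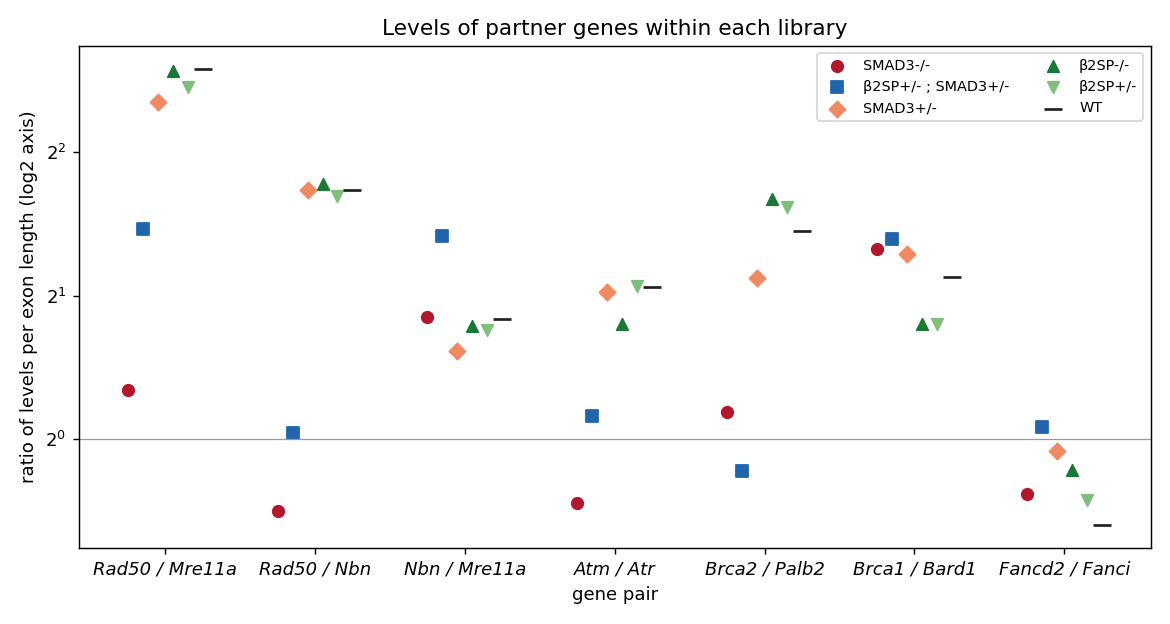
Ratio of the levels of 2 partner genes per exon length within each library, on a log2 axis, 1 point per library. Rad50 over Mre11a is 1.27 in SMAD3-/- and 2.75 in the double heterozygote, against 5.09 to 5.96 in the other 4 libraries, and Atm over Atr and Brca2 over Palb2 are likewise lowest in that pair.

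Of the other resection genes, Exo1 had 43.7 CPM in SMAD3-/-, 10.2 in the double heterozygote, 22.6 in SMAD3+/-, 10.8 in β2SP-/-, 13.1 in β2SP+/- and 14.2 in WT, a fold of 3.08 (2.61 to 3.67) for SMAD3-/- over WT. Rbbp8 had 61.4 CPM in SMAD3-/- against 34.5 in WT, a fold of 1.78 (1.59 to 2). Blm, the helicase that dissolves joint molecules, was not called, with 39.1 CPM against 33.6 in WT. Among the recombination mediators and motor proteins, Xrcc2 was called higher at 21.3 CPM in SMAD3-/- against 8.49 in WT, a fold of 2.51 (2.01 to 3.15), and Rad54l at 21.7 CPM against 9.55, a fold of 2.27 (1.84 to 2.82). Their relative Xrcc3 was called lower, with 5.73 CPM in SMAD3-/-, 7.99 in the double heterozygote, 12.6 in SMAD3+/-, 11.2 in β2SP-/-, 9.72 in β2SP+/- and 11.9 in WT, 2.07-fold (1.61 to 2.66) lower in SMAD3-/- than in WT. Xrcc2 and Xrcc3 belong to different mediator complexes and moved in opposite directions here. Rad51c, with 5.24 CPM against 5.13 in WT, Rad52, with 8.84 against 8.85, and Rad54b, with 11.9 against 7.43, were not called.

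Among the checkpoint genes, the 3 of the replication-stress branch were called higher in SMAD3-/- and Atm was not. Atr, the kinase recruited to single-stranded DNA, had 90 CPM in SMAD3-/-, 34.7 in the double heterozygote, 51.5 in SMAD3+/-, 46.6 in β2SP-/-, 44.5 in β2SP+/- and 45.1 in WT, a fold of 2 (1.81 to 2.2) for SMAD3-/- over WT. Chek1, its target kinase, was 1.81-fold (1.55 to 2.12) and Topbp1 1.75-fold (1.67 to 1.84) higher in SMAD3-/- than in WT, and the call of Chek1 was lost with DESeq2 size factors. Atm had 81.0 CPM in SMAD3-/-, 47.2 in the double heterozygote, 127 in SMAD3+/-, 99.1 in β2SP-/-, 113 in β2SP+/- and 114 in WT, a ratio of 0.710 (0.661 to 0.763) in SMAD3-/- to WT. Per exon length Atm stood at 0.738 times Atr in SMAD3-/- and 1.12 times in the double heterozygote, against 1.74 to 2.09 times in the other 4 libraries.

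In the double heterozygote against WT, 9 of the 32 genes were called lower and none higher, where 19.1% of all genes were called lower and 21.6% higher. The median log2 ratio of the set was -0.51, against 0.07 over all genes. Of the 32 ratios 25 were below 1, where 52.4% of all genes had a ratio above 1. With the widened intervals none of the 32 was called, where 2.34% of all genes were called higher and 4.92% lower. Calls fell in the BRCA group, with 4 of 5 lower, in the checkpoint genes, with 3 of 4, and in Rad50 and Blm, while the 8 core complex genes, the FANCD2-FANCI pair, Usp1 and the 6 mediator and motor genes gave none. For 8 genes the level also lay beyond 1.5-fold below the nearest of the other 5 libraries, which held for 4.33% of all genes. None of the 9 is among the 6 genes that overlap a gene of the count tables on the opposite strand, and Brca2 alone of the 9 overlaps another annotated gene there, over 41 bases.

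The lowest ratio of the set was that of Brca2, a tumor suppressor needed for homologous recombination, with 11.3 CPM in the double heterozygote, 33.1 in SMAD3-/-, 49.9 in SMAD3+/-, 49.2 in β2SP-/-, 49.2 in β2SP+/- and 45.2 in WT. It was 3.99-fold (3.48 to 4.58) lower in the double heterozygote than in WT, and SMAD3-/- lay between that library and a tight group of 4. Palb2, which bridges BRCA1 and BRCA2, was not called, with 4.87 CPM in the double heterozygote against 6.10 in WT, and per exon length Brca2 stood at 0.857 times Palb2 in the double heterozygote and 1.14 times in SMAD3-/-, against 2.18 to 3.19 times in the other 4. Brca1, the ubiquitin ligase that promotes resection, had 20.0 CPM in the double heterozygote, 53.7 in SMAD3-/-, 48.6 in SMAD3+/-, 37.2 in β2SP-/-, 36.2 in β2SP+/- and 41.8 in WT. Bard1, its obligate partner, had 6.59 CPM in the double heterozygote, 18.5 in SMAD3-/-, 17.2 in SMAD3+/-, 18.4 in β2SP-/-, 18 in β2SP+/- and 16.5 in WT. Both partners were lower in the double heterozygote than in WT, Brca1 by 2.08-fold (1.85 to 2.35) and Bard1 by 2.5-fold (2.04 to 3.06), and for both no other library came near that level. Brip1, the BRCA1-bound helicase FANCJ, had 12.4 CPM against 26.7 in WT, 2.16-fold (1.85 to 2.52) lower.

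Atm, by 2.42-fold (2.24 to 2.61), Chek1, by 1.81-fold (1.51 to 2.16), and Topbp1, by 1.75-fold (1.65 to 1.85), were lower in the double heterozygote than in WT, and the call of Chek1 was lost with total-count scaling. Rad50 was 2.70-fold (2.52 to 2.90) and Blm 2.45-fold (2.13 to 2.82) lower. Atr, with 34.7 CPM against 45.1 in WT, and Nbn, with 24.2 against 20.3, were not called. The upper end of the set was Fanca, with 11.1 CPM against 5.75 in WT, a ratio of 1.93 (1.48 to 2.56) that just missed the rule and passed it with total-count scaling, and Rad52, with 13.4 against 8.85, a ratio of 1.52 (1.22 to 1.91). Across the 32 genes, longer exon length went with a lower ratio to WT in the double heterozygote, with a Spearman rho of -0.43 against -0.19 across all genes of known length. In SMAD3-/- against WT the same rho was 0.02 for the set and -0.20 for all genes. These values run across genes that share libraries and are a description, and the part of transcript length in the calls was not tested.

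Set against its single heterozygotes, the double heterozygote was again lower for each of the 9 genes. Against SMAD3+/-, 12 of the 32 were called lower and none higher, where 19% of all genes were called lower and 22.5% higher. Those 12 were the 9 named above with Fancm, Usp1 and Exo1, led by Brca2 at 4.40-fold (3.84 to 5.05) lower. Against β2SP+/-, 10 were called lower and 1 higher, where 18.3% of all genes were called lower and 21.1% higher. The 10 were again the 9 with Fancf, which was 1.98-fold (1.56 to 2.49) lower, and the gene called higher was Fanca, by 2.52-fold (1.73 to 3.79). With the widened intervals none of the 32 was called in either comparison, where 7.51% of all genes were called against SMAD3+/- and 7.79% against β2SP+/-. These comparisons share the double heterozygous library with the one against WT and are not independent of it.

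SMAD3-/- and the double heterozygote were compared directly, since they had a like share of reads on genes (80.1 and 81.2%). Both lay far below the other 4 libraries in Rn18s but differed in it too, with 349 CPM in SMAD3-/- against 1529 in the double heterozygote, 4.39-fold lower. Malat1, a nuclear noncoding RNA with 4473 CPM in SMAD3-/- against 335 in the double heterozygote, and Rn7sk, a small nuclear RNA with 4153 against 0.605, also differed between them. Reads set aside as fitting several genes were 0.0411% of uniquely placed reads in SMAD3-/- and 1.23% in the double heterozygote, the lowest and highest shares of the libraries. The part of these differences in the ratios was not tested. In this comparison 25 of the 32 genes were called higher in SMAD3-/- and 1 lower, where 19.8% of all genes were called higher and 23.4% lower, with a median log2 ratio of 1.39 for the set and -0.01 for all genes. With the widened intervals none of the 32 was called, where 2.11% of all genes were called higher and 7.37% lower. No counting interval of the 32 included 1. How many of all genes had such intervals was not computed. The median half-width for the 32 was 1.14-fold, the narrowest of the comparisons. All 5 BRCA genes, all 4 checkpoint genes, Fancd2, Fanci and Usp1 were called higher, as were 5 of 8 core complex genes, 3 of 6 mediator and motor genes and 5 of 6 resection genes. The farthest apart were Fancb, at 4.37-fold (3.69 to 5.21), Exo1, at 4.30-fold (3.78 to 4.89), Fanci, at 4.05-fold (3.51 to 4.69), and Fanca, at 3.78-fold (3.34 to 4.29). Brca1, at 2.68-fold (2.43 to 2.96), and Brca2, at 2.92-fold (2.57 to 3.33), were higher in SMAD3-/- here, although neither was called in SMAD3-/- against WT. The gene called lower was Fancg, with 6.75 CPM in SMAD3-/- against 12.3 in the double heterozygote, 1.82-fold (1.5 to 2.21), a call that was lost with DESeq2 size factors or scaling by total counts. Rad50 had a ratio of 1.46 (1.36 to 1.57) and was not called, nor were Fancc, Fancf, Rad51c, Rad52 and Xrcc3. Of the 26 genes without overlap by a gene of the count tables on the opposite strand, 19 were called higher and 1 lower, where 20.5% of all genes without it were called higher and 24.3% lower. Of the 21 without overlap by any annotated gene there, 14 were called higher and 1 lower, with a median log2 ratio of 1.14, where the shares over all such genes were 20.3% and 24%.

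**Figure D3:**
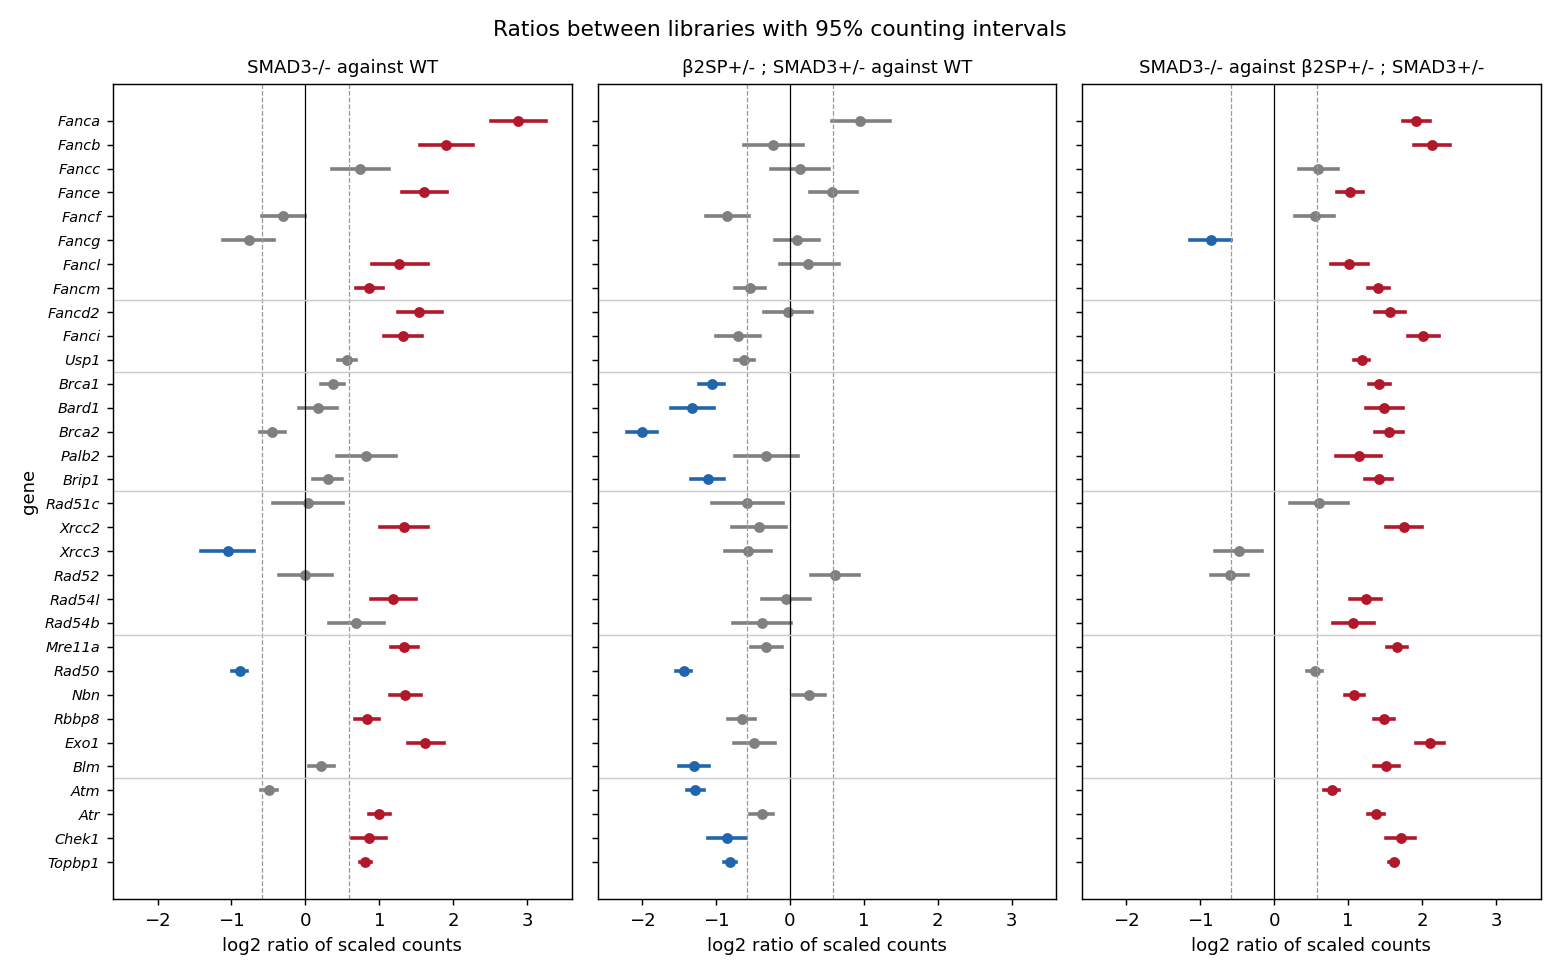
Log2 ratio of scaled counts for the 32 genes, with exact 95% counting intervals, in SMAD3-/- against WT (left), the double heterozygote against WT (middle) and SMAD3-/- against the double heterozygote (right), where dashed lines mark 1.5-fold and red and blue mark genes called higher and lower. The counts called are 16 higher and 2 lower on the left, 9 lower in the middle, and 25 higher and 1 lower on the right.

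The calls of SMAD3-/- and of the double heterozygote against WT share the WT library, so they are given gene by gene. Of the 32, 14 were called higher in SMAD3-/- and not called in the double heterozygote, as were 12.3% of all genes, and 6 (Brca1, Bard1, Brca2, Brip1, Blm and Atm) were called lower in the double heterozygote and not called in SMAD3-/-, as were 6.44% of all genes. Chek1 and Topbp1 were called higher in SMAD3-/- and lower in the double heterozygote, as were 0.979% of all genes. Rad50 was called lower in both, as were 11.7% of all genes. Xrcc3 was called lower in SMAD3-/- and not called in the double heterozygote, as were 11% of all genes. None of the 32 was called higher in both, as were 10.9% of all genes. The 8 called in neither, where 36% of all genes fell, were Fancc, Fancf, Fancg, Usp1, Palb2, Rad51c, Rad52 and Rad54b.

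Other genes of the pathway and of neighbouring processes were counted from lists of general knowledge. Of 73 further Fanconi and recombination genes, 25 were called higher and 5 lower in SMAD3-/- against WT, with a median log2 ratio of 0.41, and 6 higher and 18 lower in the double heterozygote against WT, with a median of -0.18. Over all genes the shares were 24.2% higher and 25.2% lower in SMAD3-/-, and 21.6% higher and 19.1% lower in the double heterozygote. Rpa1, a subunit of the protein that coats single-stranded DNA, had 225 CPM in SMAD3-/- against 37.5 in WT, 6-fold (5.43 to 6.64) higher. Rev3l, the catalytic subunit of a translesion polymerase, had 59.9 CPM in SMAD3-/- against 175 in WT, 2.92-fold (2.72 to 3.13) lower. In the double heterozygote the farthest lower were Rad18, a ubiquitin ligase of stalled forks, at 14.3 CPM against 52.4 in WT, and Polq, the polymerase of end joining by microhomology, at 9.04 CPM against 31 in WT.

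The end-joining genes, the other route of break repair, gave 3 higher and 3 lower of 10 in SMAD3-/- against WT, with a median log2 ratio of -0.02. Xrcc6, which encodes the KU70 end-binding protein, had 40.8 CPM in SMAD3-/- against 13.3 in WT, while Prkdc, the kinase it recruits, had 21.9 CPM in SMAD3-/- against 54.8 in WT. Of 7 mismatch repair genes 4 were called higher and none lower in SMAD3-/-, and of 18 nucleotide excision repair genes 9 higher and 1 lower. For the double heterozygote against WT these lists gave 1 higher and 2 lower for end joining, none higher and 1 lower for mismatch repair, and 2 higher and 1 lower for nucleotide excision repair. Of 21 base excision repair genes 5 were called higher and none lower in each of these libraries. Set beside the shares over all genes, the higher counts of base excision repair in both libraries and both counts of end joining in SMAD3-/- were near what all genes gave. So were the lower counts of end joining and of mismatch repair in the double heterozygote.

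The replication and mitosis lists had medians of the same sign as the set in both libraries. Of 39 DNA replication genes, 30 were called higher and none lower in SMAD3-/- against WT, with a median log2 ratio of 1.24, and 1 higher and 8 lower in the double heterozygote against WT, with a median of -0.26. Of 30 genes of G2 phase and mitosis, 19 were called higher and 1 lower in SMAD3-/-, with a median of 0.84, and none higher and 26 lower in the double heterozygote, with a median of -1.21. Cdc20, an activator of the anaphase-promoting complex, had 166 CPM in SMAD3-/- and 22.3 in the double heterozygote, against 34.4 in WT. Mki67, a widely used marker of dividing cells, was the 1 gene of that list called lower in SMAD3-/-, with 335 CPM in SMAD3-/- against 718 in WT, 2.15-fold (2.08 to 2.21). Of 20 E2F, RB and DREAM genes, regulators of cell-cycle transcription, 4 were called higher and 4 lower in SMAD3-/-, with a median of 0.22, and 1 higher and 4 lower in the double heterozygote, with a median of -0.31. All genes gave 24.2% higher and 25.2% lower in SMAD3-/-, and 21.6% higher and 19.1% lower in the double heterozygote. Near those shares were the replication and E2F counts called lower in the double heterozygote, and both E2F counts in SMAD3-/-. In SMAD3+/- against WT the replication list had 38 of 39 ratios above 1 and a median of 0.38, and the mitosis list 29 of 30 and a median of 0.25, with none called. The part of the cell cycle in the levels of the repair genes was not tested.

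**Figure D4:**
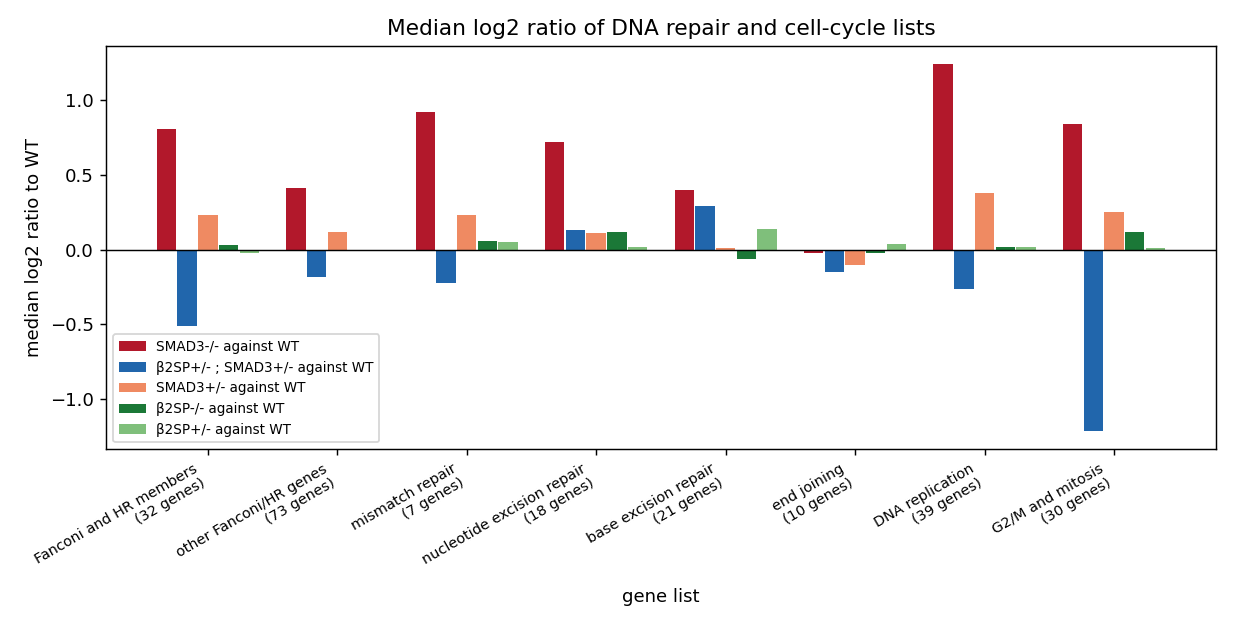
Median log2 ratio to WT of the 32 genes and of 7 other lists, with the number of genes in each, for the 5 mutant libraries; bars start at 0 and have no error bars because each is a median over genes of 1 library pair. The SMAD3-/- bar is highest for replication (1.24), followed by mismatch repair (0.92), G2/M and mitosis (0.84) and the set (0.81). The bar of the double heterozygote is lowest for G2/M and mitosis (-1.21) and next lowest for the set (-0.51).

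A fit over all 6 libraries to the count of mutant alleles at both loci tested the genes across genotypes. With edgeR's quasi-likelihood test and 3 residual degrees of freedom, none of the 32 genes passed for Sptbn1 and none for Smad3, at a Benjamini-Hochberg adjusted p of 0.05 over 14085 genes, of which 0% passed for either. At an unadjusted p below 0.05 there were none of the 32 for Sptbn1 and 4 for Smad3. The share of all genes at that unadjusted level was not recorded, so whether 4 of 32 exceeds it cannot be said. DESeq2's Wald test called none for Sptbn1 and 1 for Smad3, with 14.5% of all genes. Leaving out the Sptbn1 term, edgeR called 1 of the 32 for Smad3, with 4.8% of all genes. The 4 were Fanca, at 1.42 ± 0.263 log2 per labelled Smad3 allele (SE; edgeR adjusted p = 0.16), Fance at 0.69 ± 0.205, Fancd2 at 0.68 ± 0.252 and Nbn at 0.58 ± 0.198. Without the SMAD3-/- library 12 of the 32 slopes were positive and 20 negative, against 22 positive and 10 negative with it, and the median slope was -0.13 against 0.26 log2 per allele. Without the double heterozygote 25 slopes were positive and 7 negative, with a median of 0.42. On SMAD3+/-, the β2SP libraries and WT alone, a fit chosen after the data were seen, 28 were positive and 4 negative, with a median of 0.2, and none passed, where 2.7% of all genes did. The sign of the median slope thus differed with the libraries fitted.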

How the data were processed

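TRIZOL-extracted total RNA went into Illumina TruSeq RNA libraries, per the labels' protocols. The authors deposited raw read counts per gene symbol, 1 table per library, without scaling. The mm9 build and the tools TopHat2 2.0.10, HTSeq, Trimmomatic, FastQC and DESeq2 are listed in the submitters' processing notes. The strand setting, counting mode and annotation are not given in the sources used here. The 5 summary lines that close each table entered neither library sizes nor tests.

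TMM scaling was done in edgeR 4.0.16 (R 4.3.3), and CPM refer to the scaled library size. Levels per kilobase used merged exon lengths of GENCODE M21 (GRCm38), which need not match the authors' annotation. Ratios with exact Clopper-Pearson 95% intervals (scipy 1.17.1) covered the 14810 genes that reached 1 CPM in any library, and were called beyond 1.5-fold. The pair rule and the fit were tested on simulated data. With 1 library per genotype, no p-value was computed for pairs. The allele-dose fit used edgeR's quasi-likelihood test (limma 3.58.1) on the 14085 genes that reached 1 CPM in 2 or more libraries. It assumes an equal effect per labelled allele, and its spread includes differences between preparations.

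All 33 members are accounted for, and 1 other gene of the pathway is not reported here. From each other list, the genes open to naming were up to 3 a direction whose interval bound nearest to 1-fold was farthest from it. Promoters shown were those of the 3 higher and 3 lower members with the farthest bound in SMAD3-/- against WT and against the double heterozygote, where the table had them, and Brca2. The members and lists were chosen with earlier results of these data known. Alternatives were DESeq2 size factors, total counts, TMM without structural RNAs and histones, no filter, a 5 CPM filter, a 2-fold threshold, intervals widened by the dispersion of the fit, the fit without each library or without the second gene's alleles, carriers set against non-carriers, and a Wald test in DESeq2 1.42.0. The scaling without structural RNAs, the fit on 4 libraries and the counts without members overlapped on the opposite strand, by a gene of the tables or by any annotated gene, were added after the data were seen.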

Additional observations from a re-analysis of the deposited data

How the results depend on the processing

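No paired analysis was possible because each genotype has 1 library and the labels number no replicates. Among 288 results of a gene in a comparison, no call changed direction under the other scalings. Genes that were not called were not checked for direction. Filters, thresholds and interval widths leave the ratio itself unchanged, so they could not reverse a call. With a 2-fold threshold, 9 of the 32 genes were called in SMAD3-/- against WT (18 at 1.5-fold), where 32.8% of all genes were called, 5 in the double heterozygote against WT (9 at 1.5-fold), where 23.5% were, and 5 in the double heterozygote against β2SP+/- (11 at 1.5-fold), where 22.9% were. With intervals widened by the dispersion of the 6-library fit, a coefficient of variation of 0.467 that includes differences between preparations, 1 gene was left in SMAD3-/- against WT, Fanca, and 0 in the double heterozygote against WT, against β2SP+/- and against SMAD3+/-, and 0 in SMAD3-/- against the double heterozygote, where 7.27 to 12.8% of all genes were called. With the dispersion among SMAD3+/-, the β2SP libraries and WT, a coefficient of 0.112, 11 were left in SMAD3-/- against WT, where 38% of all genes were called, and 6 in the double heterozygote against β2SP+/-, where 28.4% were. Of the 21 genes free of any annotated overlap on the opposite strand, 9 were called in SMAD3-/- against WT, with a median of 0.36. These were 7 higher and 2 lower, where 24.8% of all genes without such overlap were called higher and 23.9% lower. In SMAD3-/- against the double heterozygote 15 of the 21 were called, 14 higher and 1 lower, with a median of 1.14. The shares of all such genes in that comparison were 20.3% higher and 24% lower. With total-count scaling the median of all genes in SMAD3-/- against WT moved to 0.16, against 0.06, and that of the 32 to 0.90. The Smad3 allele-dose fit called 1 gene, Fanca, without the Sptbn1 term (edgeR adjusted p = 0.0395, with 4.8% of all genes) and 1 by DESeq2's Wald test (adjusted p = 0.00199, with 14.5% of all genes); the edgeR fit without each library in turn called 0 to 0 for either gene, with a lowest adjusted p for Smad3 between 0.0895 and 0.575. The cause of these changes was not tested. All other settings kept each count within 1.5-fold. Depth limits the β2SP comparisons most, where the median half-width of an interval was 1.31-fold in β2SP-/- and 1.3-fold in β2SP+/-, against 1.14-fold between SMAD3-/- and the double heterozygote.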

Other observations

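Slx4, the scaffold of the nucleases that cut out crosslinks, was the only gene of the 33 outside the rule, since the tables hold it only as Btbd12, an older symbol in RefSeq. It had 36.5 CPM in SMAD3-/-, 37.6 in the double heterozygote, 37.8 in SMAD3+/-, 37.8 in β2SP-/-, 37.7 in β2SP+/- and 37.6 in WT, from 253 to 1180 reads. Its highest level exceeded its lowest 1.037-fold, the smallest such ratio among the 14810 genes, followed by 1.038-fold for Tcf25. It was chosen after its values were seen, and some gene must hold that rank. The 32 described genes, in the same libraries, had a median ratio of 2.69-fold.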
